A study of Mus musculus with 4 samples.

Results

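Cochlear macrophages, the complement genes and the MHC class II genes of antigen presentation were examined as 34 genes, chosen by name from the 17816 genes that had a value in every library. The list was drawn up with earlier results of these data known, by what the genes are and not by a threshold on their values. All 34 had a row in the tables, and 33 passed the filter on low values (an average over all libraries of 0.5 FPKM or more). FPKM counts a gene's fragments per kilobase of its transcript, relative to all fragments in the library. The gene that did not pass was C3.

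Macrophages settle in the cochlea during development and lie along the auditory nerve, in the spiral ligament and beside the vessels of the stria vascularis. They depend on signals through the receptor encoded by Csf1r, take up debris and pathogens through scavenger and Fc receptors, and carry the adaptors TYROBP and FCER1G, which pass receptor signals on through their immunoreceptor tyrosine-based activation motifs (ITAMs). Tissue macrophages are a main source of C1q, the recognition molecule of the classical complement pathway. MHC class II molecules present peptides to helper T cells and are carried by some macrophages, dendritic cells and B cells.

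Total RNA from the cochleae of C57BL/6 mice at postnatal day 10 was sequenced in 2 wild-type and 2 Zbtb20 knockout libraries, numbered replicates 2 and 3 in each genotype. The wild type was labelled Zbtb20 +/+ and the knockout Zbtb20 F/F, and both carried a cre transgene, which the labels name FoxG2-cre in replicate 2 and FoxG3-cre in replicate 3 of each genotype. Zbtb20 encodes a zinc finger repressor of transcription, and the design compares the line labelled as its knockout with the wild type. The sources used here do not give which cells the cre reached or whether a library came from 1 animal or from several, so the p-values rest on the spread between libraries, which may be technical. In bulk RNA, fewer cells of a type and less RNA per cell cannot be told apart.

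Zbtb20 itself was at 10.94 and 10.67 FPKM in wild-type replicates 2 and 3 and at 7.35 and 7.41 FPKM in the knockout ones (adjusted p = 0.0394, limma), so 0.683 of the wild-type level remained in the libraries labelled knockout. Leaving out any 1 library ended that call, with adjusted p of 0.083 to 0.316. Summed FPKM ran from 391808 to 405144 per library, and the steps between low values placed the depth near 17900000 to 19400000 fragments. At that depth the 34 genes stand for about 5 to 2249 fragments each in a library. Wild-type replicate 2 stood apart, because 8 skeletal muscle genes summed to 387.0 FPKM in it and to between 1.52 and 3.84 FPKM in the other libraries. By limma with Benjamini-Hochberg adjustment, 618 of the 13966 tested genes (4.43%) had an adjusted p under 0.05, 333 (2.38%) higher and 285 (2.04%) lower in the knockout. The 8 peripheral myelin genes listed all fell, from sums of 6986 and 3884 FPKM to 500.6 and 851.7 FPKM, and the part of that change in the scaling of other genes was not tested. With either knockout library left out, 1 gene passed in the whole table and 0 of these 34.

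Macrophage transcripts were present in every library. Mrc1, a mannose receptor gene of resident macrophages, rose and C2, a complement gene, fell in the knockout. These were 2 of 33 tested genes (6.06%), beside 4.43% of all tested genes. Most of the others lay slightly higher in the knockout without passing: the median log2 difference was 0.2, beside 0.06 over all tested genes, and 26 of 33 differences (78.8%) were above 0, beside 63.3% of all tested genes. At an unadjusted p under 0.05 there were 10 higher (30.3%, beside 14.3% of all tested genes) and 1 lower (3.03%, beside 7.74%). The genotypes did not overlap in 20 (60.6%, beside 55.0%): both knockout libraries lay above both wild-type libraries in 18 of the 33 (54.5%, beside 37.9%) and below them in 2 (6.06%, beside 17.1%), and the genotypes overlapped in 13.

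**Figure D1:**
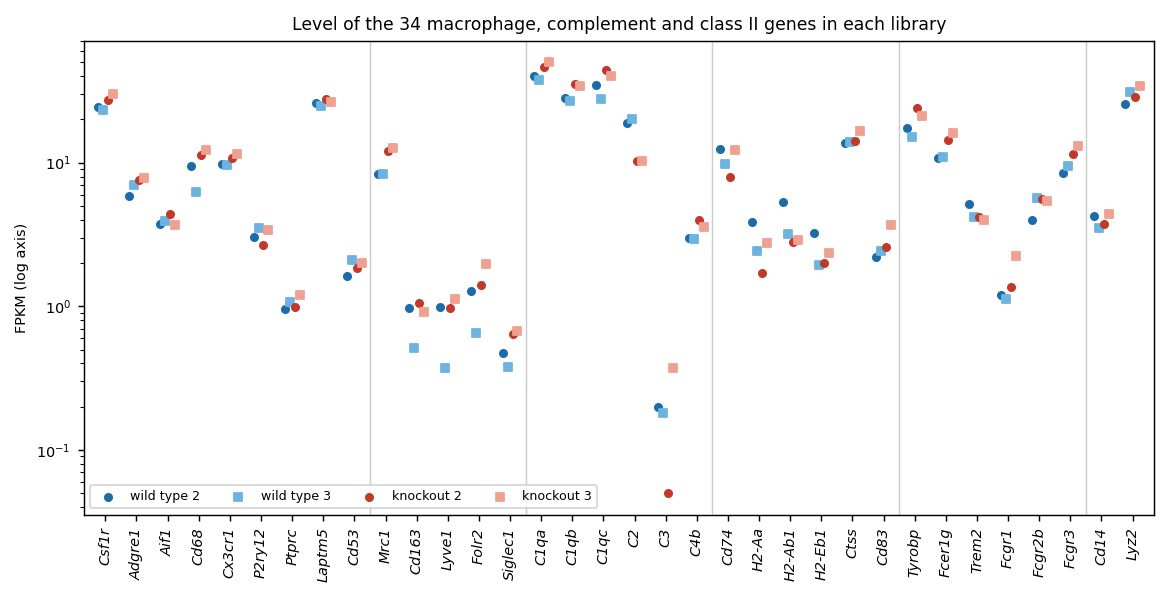
Level of each of the 34 genes in FPKM on a log axis, with circles for replicate 2 and squares for replicate 3, blue for wild type and red for knockout, and grey lines between the role groups. Levels span from 0.05 FPKM for C3 in knockout replicate 2 to 50 FPKM for C1qa in knockout replicate 3, and C2 is the gene whose knockout points lie farthest below its wild-type points among those above 10 FPKM.

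The genes that define macrophages and leukocytes set the scale. Csf1r, the receptor gene for the growth factors that keep macrophages alive, was at 24.41 and 23.32 FPKM in wild-type replicates 2 and 3 and at 27.25 and 29.96 FPKM in knockout replicates 2 and 3. Both knockout libraries were above both wild-type ones, with a log2 difference of 0.25 ± 0.08 (SE, n = 2 per group) that did not pass (adjusted p = 0.164, limma). Of its exon bases 15.1% lie opposite Hmgxb3, which was at 9.02 to 9.73 FPKM in the 4 libraries. Laptm5, which encodes a lysosomal membrane protein of blood cells, was as abundant as Csf1r in wild-type cochleae, at 25.83 and 24.7 FPKM, and its knockout values of 27.68 and 26.41 FPKM were close to these. Adgre1, which encodes the EMR1 surface antigen of mouse macrophages, ran from 5.85 to 6.99 FPKM in wild-type cochleae and from 7.62 to 7.82 FPKM in the knockout. Cx3cr1, the fractalkine receptor gene, was at 9.72 and 9.68 FPKM against 10.77 and 11.53 FPKM.

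Cd68, the gene of a lysosomal glycoprotein of phagocytes, differed more, and it also differed between the wild-type libraries. It was at 9.43 and 6.21 FPKM in wild-type cochleae and at 11.25 and 12.22 FPKM in the knockout, a ratio of means of 1.5. The log2 difference of 0.55 ± 0.18 did not pass (adjusted p = 0.174, limma), and it was 0.82 with an adjusted p of 0.0273 without wild-type replicate 2. Aif1, P2ry12, Ptprc and Cd53 had genotypes that overlapped, with log2 differences from -0.07 to 0.06. They encode the calcium-binding protein IBA1, a purinergic receptor known best from microglia, the CD45 phosphatase carried by all leukocytes and a tetraspanin. Ptprc was at no more than 1.2 FPKM in any library. In this group of 9 genes 0 passed the adjusted threshold (limma). At an unadjusted p under 0.05 there were 2, all higher, beside 14.3% of all tested genes.

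Surface receptors of resident macrophages came next, and Mrc1 was the member that rose. Mrc1, which encodes the mannose receptor CD206 and lies on chromosome 2 from 14229392 to 14332057 of the plus strand (GRCm38), was at 8.28 FPKM in each wild-type library, against 12.06 and 12.75 FPKM in the knockout. About 799 and 828 fragments stand behind the wild-type values and 1160 and 1329 behind the knockout ones. The knockout mean was 1.5 times that of the wild type (log2 difference 0.53 ± 0.08, SE, n = 2 per group, adjusted p = 0.0335, limma), and both knockout libraries were above both wild-type ones. Relative to Csf1r, Mrc1 was at 0.339 and 0.355 in wild-type cochleae and 0.443 and 0.426 in the knockout. Leaving out any 1 library ended the call for Mrc1, with adjusted p = 0.0693 and 0.0751 without wild-type replicate 2 or 3 and 0.269 and 0.268 without knockout replicate 2 or 3 (limma), at log2 differences of 0.49 to 0.57. Testing without the filter on low values ended it too (0.0704).

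The other members of this group were rare. Cd163, the haemoglobin scavenger receptor gene, Lyve1, a hyaluronan receptor gene shared with lymphatic vessels, Folr2, which encodes folate receptor beta, and Siglec1, which encodes the sialic acid receptor CD169, were each at a wild-type mean under 1 FPKM. Lyve1 showed how far the wild-type libraries could lie apart at such levels, with 0.99 FPKM in replicate 2 and 0.37 FPKM in replicate 3, or about 51 and 20 fragments. Its knockout values of 0.97 and 1.13 FPKM overlapped this range. Folr2 was at 1.27 and 0.65 FPKM against 1.4 and 1.97 FPKM (log2 difference 0.46 ± 0.21, adjusted p = 0.263, limma), and 63.1% of its exon bases lie opposite the transcript model Gm10602. All 5 genes of the group had a positive difference, beside 63.3% of all tested genes, and 4 of the 5 did not pass. Of the 5 lymphatic endothelial genes listed beside Lyve1, 0 rose and 1 fell, beside 2.38% and 2.04% of all tested genes. The gene that fell was Reln, from 3.73 and 3.19 FPKM to 0.79 and 0.95 FPKM.

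The mouse Mrc1 promoter is printed because Mrc1 is the member that rose. The 250 bases before its start (chr2:14229164-14229413, plus strand, RefSeq GRCm38.p6) read, with capitals for the letters GAGGAA on either strand:
Mrc1: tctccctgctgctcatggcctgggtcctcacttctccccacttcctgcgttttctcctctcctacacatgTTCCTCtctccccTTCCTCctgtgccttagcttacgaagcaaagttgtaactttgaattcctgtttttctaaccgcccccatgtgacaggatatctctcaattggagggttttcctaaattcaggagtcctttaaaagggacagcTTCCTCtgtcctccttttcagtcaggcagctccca
GAGGAA is the PU box, the core of the sites of PU.1, a transcription factor of the myeloid lineage. It occurred 3 times here, with leftmost bases at -180, -167 and -35 from the start. RefSeq promoters were matched for 22 of the 34 genes, of which 12 held the letters at least once on either strand. Of all 32851 promoters of this length, 23.3% held them. The former counts genes and the latter counts promoters, so they are not a like comparison. Spi1, which encodes PU.1, was at 5.12 and 4.14 FPKM in wild-type cochleae and 6.63 and 6.19 FPKM in the knockout (log2 difference 0.4 ± 0.12, adjusted p = 0.143, limma).

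**Figure D2:**
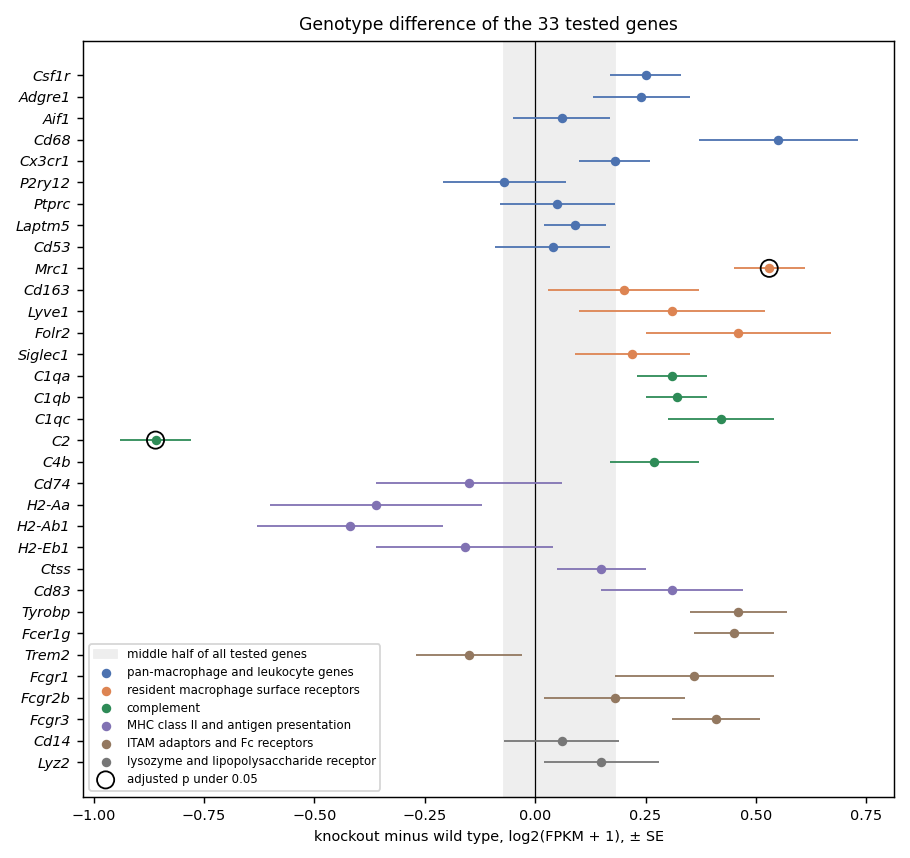
Difference between knockout and wild type on the log2(FPKM + 1) scale for the 33 tested genes, with bars for the SE of 2 libraries per genotype, colours for the role groups, a grey band between the quartiles of all tested genes (-0.07 to 0.18) and rings for an adjusted p under 0.05. The rings mark Mrc1 at 0.53 and C2 at -0.86, and the genes of the C1q chains, Tyrobp, Fcer1g and Fcgr3 lie between 0.31 and 0.46.

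Complement was the group in which single genes lay farthest apart. The classical pathway starts when C1q, built of A, B and C chains, binds its target together with the proteases C1r and C1s. These cleave C4 and C2 to form the convertase that acts on C3. The C1q chain genes lie side by side on chromosome 4 and were among the most abundant of the 34 genes. C1qa was at 40 and 37.48 FPKM in wild-type cochleae and 46.32 and 50 FPKM in the knockout. C1qb was at 28.24 and 27.02 FPKM against 35.56 and 33.92 FPKM, and C1qc at 34.95 and 27.8 FPKM against 44.18 and 40.27 FPKM. Both knockout libraries lay above both wild-type ones in each chain, with log2 differences of 0.31 ± 0.08, 0.32 ± 0.07 and 0.42 ± 0.12 (SE, n = 2 per group). None of the 3 passed (adjusted p = 0.105, 0.0801 and 0.138, limma), while C1qc passed without wild-type replicate 2 (0.58, adjusted p = 0.0495).

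The chains kept their proportions. The level of C1qa was 1.3 to 1.47 times that of C1qb over the 4 libraries, and that of C1qc was 1.03 to 1.24 times that of C1qb. Relative to Csf1r, C1qa was at 1.64 and 1.61 in wild-type cochleae and at 1.7 and 1.67 in the knockout, so its difference between genotypes was close to that of Csf1r. The neighbouring promoters of C1qb (chr4:136886201-136886450, minus strand) and C1qc (chr4:136892915-136893164, minus strand), again 250 bases from RefSeq GRCm38.p6, are shown because these are the C1q chain genes with a matched promoter. Capitals mark the PU box on either strand, with leftmost bases at -30 in C1qb and -193 in C1qc:
C1qb: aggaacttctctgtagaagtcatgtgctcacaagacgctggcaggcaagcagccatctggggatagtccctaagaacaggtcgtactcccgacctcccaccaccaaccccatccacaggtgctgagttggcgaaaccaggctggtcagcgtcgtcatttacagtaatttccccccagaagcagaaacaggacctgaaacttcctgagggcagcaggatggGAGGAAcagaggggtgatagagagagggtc
C1qc: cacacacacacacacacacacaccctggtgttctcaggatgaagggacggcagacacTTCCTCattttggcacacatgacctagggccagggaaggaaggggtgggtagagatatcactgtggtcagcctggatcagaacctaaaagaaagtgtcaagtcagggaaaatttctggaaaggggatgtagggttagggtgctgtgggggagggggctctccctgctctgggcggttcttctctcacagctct

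C2 went the other way. C2, which encodes the serine protease that completes the classical convertase, lies on chromosome 17 from 34862604 to 34898265 on the minus strand, within the MHC. It was at 18.75 and 20.15 FPKM in wild-type cochleae and at 10.27 and 10.31 FPKM in the knockout, about 889 and 990 fragments against 486 and 528. The knockout mean was 0.529 times that of the wild type (log2 difference -0.86 ± 0.08, SE, n = 2 per group, adjusted p = 0.0107, limma), and the groups did not overlap. In the wild type C2 stood at 0.768 and 0.864 of the level of Csf1r, and in the knockout at 0.377 and 0.344. The call stood without either wild-type replicate (adjusted p = 0.0175 and 0.0227) and was lost without knockout replicate 2 (-0.85, adjusted p = 0.171) or knockout replicate 3 (-0.86, adjusted p = 0.148).

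Reads of C2 can be shared with other gene models. Of its 50-base words 58.0% also occur in Gm20547, a GENCODE model on the same strand that shares 42.8% of its exon bases and was not analysed here. A further 4.16% of its exon bases lie opposite Zbtb12, which was at 4.03 to 5.87 FPKM. The adjacent Cfb, which encodes the matching protease of the alternative pathway, was at 1.54 and 1.55 FPKM in wild-type cochleae and 1.7 and 1.19 FPKM in the knockout, so the genotypes overlapped there.

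C4b, which encodes the other component of the classical convertase, was at 2.98 and 2.92 FPKM against 3.96 and 3.55 FPKM. Its log2 difference of 0.27 ± 0.1 did not pass (adjusted p = 0.226, limma), and 35.2% of its 50-base words occur in its paralog C4a, itself at no more than 0.37 FPKM. C3, the central component of the cascade, was below the filter, at 0.2 and 0.18 FPKM in wild-type cochleae and 0.05 and 0.37 FPKM in the knockout. Its genotypes overlapped at about 5 to 37 fragments per library, and a genotype difference in C3 was not tested.

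Among 31 other complement genes with a value, 21 were tested, with a median log2 difference of 0.15. Of these 2 rose and 1 fell, beside 2.38% and 2.04% of all tested genes. C1ra, the partner protease gene of C1q, was at 5.35 and 4.17 FPKM against 9.27 and 8.03 FPKM (0.75 ± 0.14, adjusted p = 0.0515, limma), just short of the threshold, while C1s1 was at -0.11 ± 0.15. Masp1, which encodes a protease of the lectin pathway, rose from 3.49 and 2.94 FPKM to 6.16 and 5.79 FPKM (adjusted p = 0.0335). Cd59a, the gene of an inhibitor of the membrane attack complex, rose from 15.23 and 14.74 FPKM to 21.73 and 27.06 FPKM (adjusted p = 0.0481). Vtn, which encodes vitronectin, an inhibitor of the same complex, fell from 15.02 and 14.66 FPKM to 9.47 and 9.9 FPKM (adjusted p = 0.0262). The calls of Masp1, Cd59a and Vtn were lost with no filter (adjusted p = 0.08, 0.0955 and 0.0539, limma). That of Cd59a was also lost with median-of-ratios scaling (0.0612) and with no intensity trend (0.0697). For these 3 genes the genotypes did not overlap, and all 3 calls were lost without either knockout library or without wild-type replicate 3 (adjusted p from 0.0571 to 0.31), and those of Cd59a and Vtn also without wild-type replicate 2 (0.0759 and 0.062).

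**Figure D3:**
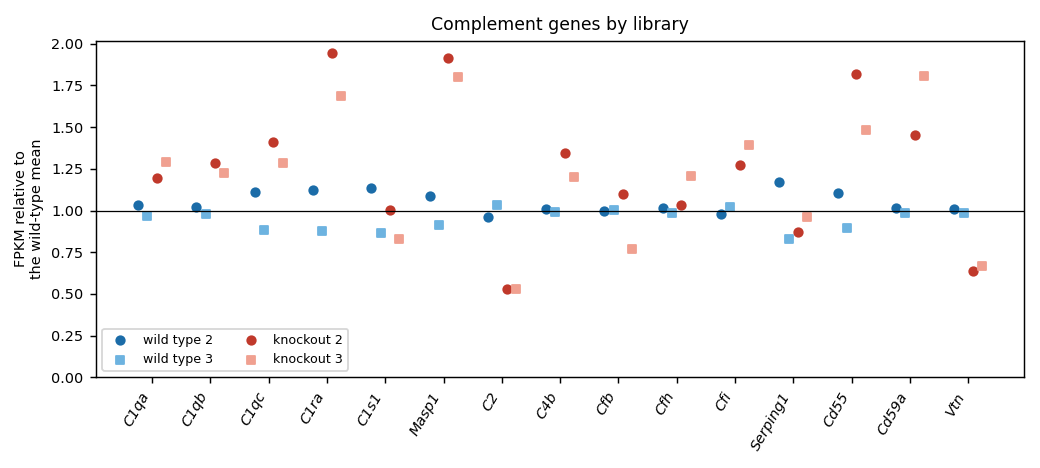
FPKM of 15 complement genes in each library relative to the mean of the wild-type libraries (line at 1), with circles for replicate 2 and squares for replicate 3. C2 and Vtn lie below 1 in both knockout libraries, the C1q chain genes, Masp1 and Cd59a lie above 1 in both, and C1s1, Cfb and Serping1 overlap between genotypes.

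In the MHC class II group 0 of 6 genes passed (limma, 0 also at an unadjusted p under 0.05), and the median log2 difference was -0.15. Cd74, which encodes the invariant chain that escorts class II molecules, was at 12.45 and 9.84 FPKM in wild-type cochleae and 7.95 and 12.28 FPKM in the knockout. H2-Aa and H2-Ab1 encode the alpha and beta chains of the I-A molecule. H2-Aa was at 3.87 and 2.44 FPKM against 1.7 and 2.77 FPKM, and H2-Ab1 at 5.33 and 3.2 FPKM against 2.81 and 2.9 FPKM. H2-Eb1, the gene of the I-E beta chain, was at 3.24 and 1.95 FPKM against 1.99 and 2.36 FPKM. Each of these 4 genes was highest in wild-type replicate 2, and the genotypes overlapped in all but H2-Ab1. Their log2 differences were -0.15 ± 0.21, -0.36 ± 0.24, -0.42 ± 0.21 and -0.16 ± 0.2 in the order named (adjusted p from 0.303 to 0.716, limma), resting on about 34 to 314 fragments per library.

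The sign rested on single libraries for part of the group. Without wild-type replicate 2 the log2 difference was 0.01 for Cd74 and 0.1 for H2-Eb1, and without knockout replicate 2 it was 0.14 for Cd74. Wild-type replicate 2 was also highest in the osteoclast genes Acp5 (44.15 FPKM, against 10.88 to 14.52 FPKM in the others) and Mmp9 (22.42 FPKM, against 6.75 to 7.76 FPKM). Osteoclasts are bone-resorbing cells of the macrophage lineage. The 11 osteoclast genes listed summed to 362.1 and 278.4 FPKM in wild-type cochleae and to 225.1 and 236.9 FPKM in the knockout. Most of that sum came from Car2 and Ctsk. Ctsk was at 144.78 and 104.99 FPKM against 98.99 and 102.7 FPKM, so its wild-type replicate 3 was close to the knockout. Of 7 tested osteoclast genes 1 fell, beside 2.04% of all tested genes. It was Car2, a carbonic anhydrase gene of osteoclasts and other cells. Its level went from 142.1 and 146.82 FPKM to 102.24 and 112.1 FPKM (adjusted p = 0.0475, limma). Its call was lost with no intensity trend (0.0858), with no filter (0.0824) and with any 1 library left out (0.0842 to 0.345). The part of bone and muscle RNA in the class II levels was not tested. B cells, which also carry class II, left little RNA in any library: the sum of their 7 listed genes was 2.05 and 2.94 FPKM in wild-type cochleae and 1.87 and 1.99 FPKM in the knockout. H2-DMa, which encodes a chain of the peptide-loading molecule, was also highest there at 5.6 FPKM, against 2.7 to 3.11 FPKM, while H2-DMb1 was at 13.3 to 16.44 FPKM over the 4 libraries.

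Ciita, the master regulator gene of class II transcription, was at 0.09 to 0.12 FPKM in the 4 libraries and was not tested. Ctss, which encodes the cathepsin that trims the invariant chain, was at 13.66 and 13.83 FPKM against 14.18 and 16.69 FPKM, and Cd83, an activation marker of antigen-presenting cells, at 2.21 and 2.43 FPKM against 2.6 and 3.7 FPKM. Neither passed (adjusted p = 0.416 and 0.318, limma). Of 13 other genes of antigen presentation tested, 1 rose and 0 fell, beside 2.38% and 2.04% of all tested genes. That gene was Ctsb, which encodes the lysosomal protease cathepsin B, at 165.08 and 163.53 FPKM against 216.92 and 223.14 FPKM (adjusted p = 0.0341). The Ctsb call was lost with median-of-ratios scaling (0.06), with no intensity trend (0.0691), with no filter (0.0649) and with any 1 library left out (0.0784 to 0.285).

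Class II promoters carry a shared pair of elements, the X and Y boxes, on which CIITA acts through bound factors. The promoters of H2-Aa (chr17:34287824-34288073, minus strand) and H2-Eb1 (chr17:34305617-34305866, plus strand) are shown. Of the 22 members with a promoter, these were the ones that held the letters of both elements. Capitals mark CTNGCAAC, the core of the X box, and CTGATTGG, the Y box, in the 250 bases before each start from RefSeq GRCm38.p6:
H2-Aa: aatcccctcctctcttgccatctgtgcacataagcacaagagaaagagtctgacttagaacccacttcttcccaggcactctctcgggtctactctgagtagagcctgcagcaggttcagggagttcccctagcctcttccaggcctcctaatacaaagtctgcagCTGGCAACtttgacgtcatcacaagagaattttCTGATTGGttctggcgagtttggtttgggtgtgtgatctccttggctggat
H2-Eb1: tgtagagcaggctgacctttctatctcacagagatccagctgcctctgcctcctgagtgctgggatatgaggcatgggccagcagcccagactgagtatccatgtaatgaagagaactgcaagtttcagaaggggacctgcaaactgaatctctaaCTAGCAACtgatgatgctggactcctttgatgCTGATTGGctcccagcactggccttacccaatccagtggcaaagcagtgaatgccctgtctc
The X box letters began at -84 in H2-Aa and -94 in H2-Eb1, and the Y box letters at -51 and -62. Searched on both strands, 2.84% of all promoters of this length held the former and 3.83% the latter. Of the 22 members with a promoter, 3 held the X box letters (these 2 genes and Cd163) and 2 the Y box letters. These are counts of genes, and the shares above are of promoters.

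**Figure D4:**
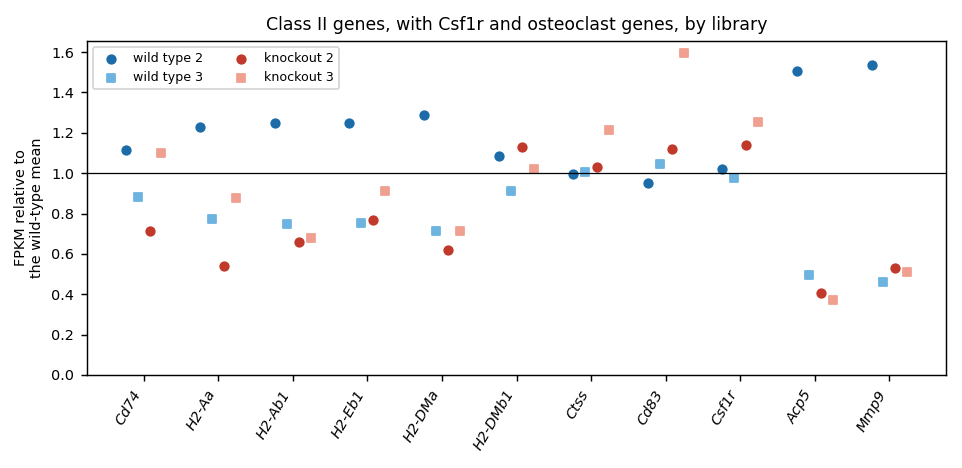
FPKM of 8 antigen presentation genes, Csf1r and the osteoclast genes Acp5 and Mmp9 in each library relative to the mean of the wild-type libraries (line at 1). Wild-type replicate 2 (dark blue circles) is the highest library for Cd74, H2-Aa, H2-Ab1, H2-Eb1, H2-DMa, Acp5 and Mmp9, and the knockout libraries are the highest for Ctss, Cd83 and Csf1r.

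ITAM adaptors and most receptors that use them lay higher in the knockout without passing, with a median log2 difference of 0.38 over 6 genes. Tyrobp, which encodes the adaptor DAP12, was at 17.31 and 15.1 FPKM in wild-type cochleae and 24.13 and 21.1 FPKM in the knockout. Fcer1g, which encodes the common gamma chain of Fc receptors, was at 10.7 and 10.98 FPKM against 14.31 and 16.16 FPKM. Fcgr3, the gene of a low-affinity activating IgG receptor, was at 8.51 and 9.45 FPKM against 11.52 and 13.04 FPKM. In each of these genes both knockout libraries lay above both wild-type ones, with ratios of means of 1.4, 1.41 and 1.37 and adjusted p of 0.0886, 0.0623 and 0.0995 (limma). For Fcgr3, 12.8% of the 50-base words occur in Fcgr2b.

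Fcgr1, the high-affinity IgG receptor gene, was at 1.19 and 1.12 FPKM against 1.36 and 2.23 FPKM. Fcgr2b, the gene of the inhibitory IgG receptor, overlapped between genotypes at 3.97 and 5.63 FPKM against 5.56 and 5.43 FPKM. Trem2, which encodes a lipid-sensing receptor that signals through DAP12, was at 5.14 and 4.21 FPKM against 4.21 and 3.98 FPKM (log2 difference -0.15 ± 0.12, adjusted p = 0.495, limma). Relative to Tyrobp, Trem2 was at 0.297 and 0.279 in wild-type cochleae and at 0.174 and 0.189 in the knockout, and that ratio was not tested. Of 18 further tested genes of ITAM signalling and Fc receptors, 0 passed (limma, 0 also at an unadjusted p under 0.05), with a median log2 difference of 0.05.

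Lyz2, which encodes the lysozyme of macrophages and neutrophils, was at 25.66 and 30.99 FPKM in wild-type cochleae and at 28.62 and 34.34 FPKM in the knockout, so replicate 3 was the higher library in both genotypes and the genotypes overlapped. Of its 50-base words 15.4% occur in Lyz1, at 2.06 to 2.83 FPKM. S100a9, a gene of neutrophils and monocytes, fell from 4.43 and 6.57 FPKM to 1.52 and 1.51 FPKM (adjusted p = 0.0235, limma). The 11 neutrophil and granulocyte genes listed summed to 13.68 and 18.28 FPKM in wild-type cochleae and 5.68 and 7.24 FPKM in the knockout. Of 6 tested 1 was called, beside 4.43% of all tested genes. The part of neutrophil RNA in the level of Lyz2 was not tested. Cd14, the lipopolysaccharide co-receptor gene, was at 4.24 and 3.49 FPKM against 3.75 and 4.38 FPKM, and neither Lyz2 nor Cd14 passed (adjusted p = 0.54 and 0.812).

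Ligands of these receptors showed no called change. Csf1, the gene of the main ligand of the Csf1r product, was at 8.18 and 7.21 FPKM in wild-type cochleae and 11.26 and 12.62 FPKM in the knockout. Both knockout libraries were higher (log2 difference 0.57 ± 0.1), with an adjusted p of 0.0502 (limma) that lay at the threshold and ran from 0.0158 to 0.317 over the alternatives tried. Il34, the gene of the other ligand, was at 14.83 and 13.07 FPKM against 11.27 and 12.75 FPKM (-0.2 ± 0.1, adjusted p = 0.324). Csf2ra, which encodes the alpha chain of the receptor for another myeloid growth factor, GM-CSF, resembled Csf1 at 10.9 and 9.16 FPKM against 15.08 and 15.47 FPKM (0.57 ± 0.1, adjusted p = 0.0509). Cx3cl1, the ligand gene for the Cx3cr1 product, was at 33.09 to 35.51 FPKM in all 4 libraries. In that list of 12 tested growth factor and chemokine genes 0 passed (limma). At an unadjusted p under 0.05 there were 3, all higher, beside 14.3% of all tested genes.

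Other genes of macrophages that were called all rose. Of 35 tested, 5 rose and 0 fell, with a median log2 difference of 0.09, beside 2.38% and 2.04% of all tested genes. Gpnmb, which encodes a lysosomal glycoprotein that melanocytes also make, rose from 6.18 and 6.98 FPKM to 28.92 and 22.87 FPKM. Slc40a1, which encodes the iron exporter ferroportin, rose from 5.95 and 6.37 FPKM to 12.64 and 12.99 FPKM. Gas6, the gene of a ligand for receptors that clear dying cells, rose from 25.18 and 23.36 FPKM to 50.76 and 46.57 FPKM. For these the adjusted p was 0.00694, 0.0098 and 0.00879 (limma), and both knockout libraries lay above both wild-type ones. Some melanocyte genes were also higher: Dct, a melanin synthesis gene, was at 37.83 and 34.64 FPKM against 208.82 and 192.67 FPKM. Of 9 melanocyte genes taken after their values were seen, 6 (Dct, Tyr, Slc45a2, Mlana, Pmel and Trpm1) rose and 1, Kit, fell, while Mitf and Sox10 did not pass (limma). Over all tested genes 2.38% rose and 2.04% fell, but a list chosen after its values were seen cannot be compared with these shares. Kit, Mitf and Sox10 are also made by other cells. The sum over the 9 was 170.5 and 152.6 FPKM in wild-type cochleae and 361.7 and 339.8 FPKM in the knockout. Dct and Sox10 made up most of it in every library, and Sox10 was at 98.84 and 81.13 FPKM against 86.13 and 74.99 FPKM. The part of melanocyte RNA in the rise of Gpnmb was not tested.

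Pf4, the gene of a chemokine of platelets and some tissue macrophages, rose 1.98-fold (adjusted p = 0.0493, limma) and Stab1, the gene of a scavenger receptor, 1.41-fold (0.047). Both calls were lost after median-of-ratios scaling (adjusted p = 0.0693 and 0.0637), with no intensity trend (0.0694 and 0.0695) and with no filter (0.104 and 0.0795). Both were also lost without wild-type replicate 3 or either knockout library, and that of Stab1 without wild-type replicate 2. Mpeg1, a macrophage gene for a pore-forming protein, was at 4.16 and 4.56 FPKM against 4.05 and 3.29 FPKM, and Apoe, the lipid carrier gene, at 1547.69 and 1324.52 FPKM against 1141.26 and 1008.4 FPKM (adjusted p = 0.385 and 0.127). Nr1h3, the gene of a sterol-sensing nuclear receptor, belongs to a separate list of myeloid transcription factors. It was at 6.65 and 5.47 FPKM against 3.81 and 3.87 FPKM (adjusted p = 0.0754, limma). The genes listed as other macrophage genes are not particular to macrophages, and which cells the transcripts came from was not measured.

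**Figure D5:**
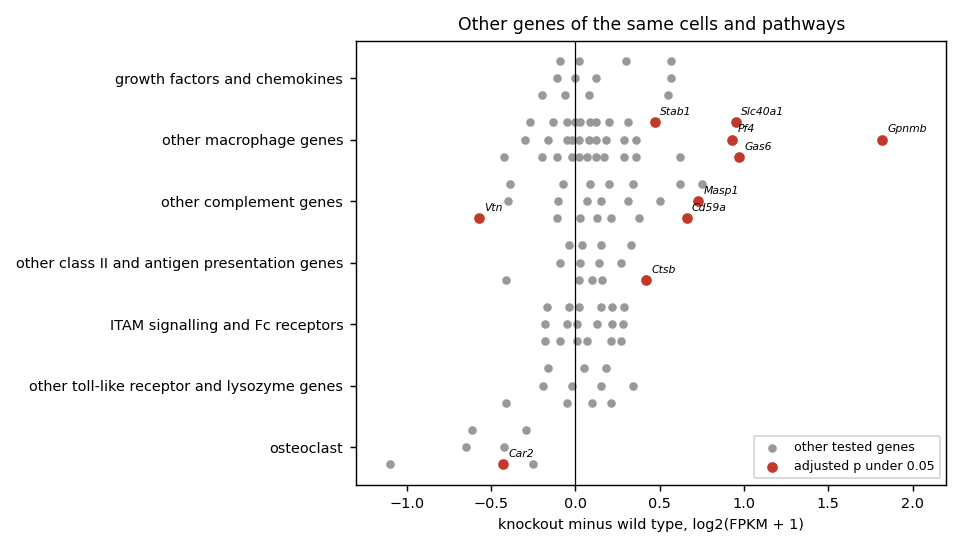
Difference between knockout and wild type on the log2(FPKM + 1) scale for the tested genes of the 7 lists named on the vertical axis, with red points for an adjusted p under 0.05. Called genes lie above 0 except for Vtn at -0.57 and the osteoclast-list gene Car2 at -0.43, and Gpnmb is farthest out at 1.82.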

How the data were processed

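The authors deposited 1 table of FPKM values per library, and FPKM was used as deposited. Per the submitters' processing notes, the mouse build was mm10 and the tools included RSEM 1.2.12, Bowtie2 2.2.5 and HISAT2 2.0.4, with no role given for each. The sources used here do not give whether strand was used in counting. Each table had 20777 rows, of which 2961 held no value, and 4 repeated FPKM columns were not used. Library depth was estimated from the steps between low values, of which 71.7% to 75.2% came out whole (30% by chance).

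Differences are knockout minus wild type in log2(FPKM + 1), which understates changes of low genes. They were tested with limma 3.58.1 (R 4.3.3, intensity trend) over every gene averaging 0.5 FPKM or more, with Benjamini-Hochberg adjustment over all of them, and the fit was tested on simulated data. With 2 libraries per genotype, an exact two-sided permutation test of 1 gene cannot go below 0.333. Members and companion lists were chosen with earlier results of these data known. All members are named, with the called genes of each list, up to 4 others with the smallest p and direct partners of members; some genes that this rule names are not reported here. Spi1, Mpeg1, Cfb, Acp5, Mmp9, H2-DMa, H2-DMb1, Nr1h3, Apoe and the overlapping genes were chosen after their values were seen. Exon overlaps and 50-base words come from GENCODE vM21 on GRCm38, and promoters from RefSeq.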

Additional observations from a re-analysis of the deposited data

How the results depend on the processing

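The alternatives were other pseudocounts, other filters, median-of-ratios scaling, no intensity trend, a replicate block and leaving out each library. Of 359 alternative values for single members, 330 kept their direction and their side of the threshold, 7 lost a call, 8 gained one and 14 changed sign. With 2 libraries per genotype and about 17900000 to 19400000 fragments each, calls were fewest when a knockout library was left out. Leaving out libraries gave 0 to 2 members called higher and 0 to 1 called lower, 0 to 8 companion genes called higher and 0 to 25 lower, and 1 to 272 genes of the whole table higher and 0 to 345 lower. The median log2 difference of the members then ran from 0.15 to 0.23, and it was 0.25 and 0.26 with pseudocounts of 0.5 and 0.1. Without a filter, 0 members, 4 companion genes and 159 genes of the table were called higher, and 7 companion genes and 107 genes of the table lower. Median-of-ratios scaling moved the median of all tested genes from 0.06 to 0 and left 5 companion genes called higher.

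The replicate numbers are shared by the genotypes, but the labels do not say that a number marks a shared litter, batch or day. Deviations of same-numbered libraries correlated at 0.403 over 13966 genes, which with 2 pairs does not settle the pairing. With the replicate block, 7 members (C1qa, C1qb, C1qc, Fcer1g, Fcgr3, Mrc1 and Tyrobp), 20 companion genes and 1362 genes of the table were called higher, and 26 companion genes and 991 genes of the table lower.

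Some small differences changed sign, and the cause was not tested. With median-of-ratios scaling they were 0 for Aif1 and Cd14, -0.01 for Cd53 and -0.03 for Cd79a. Leaving out 1 library at a time gave log2 differences from -0.04 to 0.16 for Aif1, -0.21 to 0.06 for P2ry12, -0.02 to 0.13 for Ptprc, -0.08 to 0.16 for Cd53 and -0.05 to 0.17 for Cd14. They ran from -0.43 to 0.14 for Cd74, from -0.42 to 0.1 for H2-Eb1 and from -0.03 to 0.39 for Fcgr2b. Among companion genes they ran from -0.05 to 0.05 for Cd79a and Cx3cl1, -0.29 to 0.06 for C1s1, -0.22 to 0.09 for Cfb, -1.44 to 0.15 for Mmp9 and -0.02 to 0.22 for H2-DMb1. Mast cell genes ran from -0.19 to 1.03 (Cma1), -0.23 to 1.24 (Tpsb2), -0.47 to 1.12 (Mcpt4) and -0.45 to 0.33 (Cpa3).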

Other observations

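Mast cell genes differed by replicate number. The 6 mast cell genes listed summed to 7.44 and 10.14 FPKM in replicate 2 of the wild type and the knockout and to 0.73 and 2.03 FPKM in replicate 3. Mcpt4, the gene of a mast cell chymase, was at 2.15 and 2.95 FPKM in replicate 2 and 0.05 and 0.31 FPKM in replicate 3, and Tpsb2, the gene of a mast cell tryptase, at 2.16 and 3.5 FPKM and at 0.15 and 0.62 FPKM. The genotypes overlapped in all 4 mast cell genes tested.

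Erythroid genes summed to 923.2 and 713.5 FPKM in the wild type and to 544.1 and 513.1 FPKM in the knockout. Of 11 other tested toll-like receptor and lysozyme genes 0 passed (limma), with a median log2 difference of 0.05. At an unadjusted p under 0.05 there was 1, higher, beside 14.3% of all tested genes. None of the 3 tested genes of T and NK cells or the 8 tested endothelial genes passed (limma). Their median log2 differences were 0.13 and -0.06. An unadjusted p under 0.05 was found for 1 gene of T and NK cells, higher, beside 14.3% of all tested genes. It was also found for 2 endothelial genes, lower, beside 7.74% of all tested genes.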
